A study of Homo sapiens with 12 samples.

Results

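Human chromosome 19 carries 249 protein-coding genes whose symbol starts with ZNF, and their mRNAs were measured in whole-cell and cytoplasmic RNA of cells that express PGC-1α with or without its RS domain. For each gene the counts of all its transcripts were added up, and a gene was kept when its mean over the 12 libraries reached 100 counts. This left 213 genes, named members here, of 61860 genes in all. The other 36 stayed below that minimum, and 19 of them had a mean under 10. The members nearest to the minimum were ZNF730 with a mean count of 101, ZNF837 with 145 and ZNF625-ZNF20 with 156, and the genes just outside were ZNF878 with 97.0, ZNF563 with 88.4 and ZNF442 with 81.0. Chromosome 19 held 48% of the 444 ZNF genes in the genome that reached the same minimum.

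C2H2 zinc finger proteins read DNA with arrays of short fingers, each folded around a zinc ion held by a pair of cysteines and a pair of histidines, and joined to the next by a conserved linker. Many also carry a KRAB domain, which recruits the corepressor TRIM28 (KAP1) and with it histone methyltransferases and heterochromatin proteins, and a large part of them silence transposable elements. The genes of chromosome 19 arose by repeated tandem duplication, so they lie in clusters and resemble each other in sequence.

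Arrays of fingers make up much of the coding sequence of these genes, so a single unit shows what their mRNAs share and how their base composition differs. A finger of 84 bases is shown for 4 members that the results return to, from the GRCh38 genome, with the codons of the linker after the last histidine in capitals. ZNF480 (chr19:52321947-52322030, plus strand, exon 5 of 5) had the highest ratio of cytoplasmic to whole-cell RNA, ZNF587 (chr19:57859136-57859219, plus strand, exon 3 of 3) the lowest, ZNF91 (chr19:23362094-23362177, minus strand, exon 4 of 4) the most fingers, and ZNF358 (chr19:7519699-7519782, plus strand, exon 2 of 2) a coding sequence at the GC-rich end of the members.
ZNF480: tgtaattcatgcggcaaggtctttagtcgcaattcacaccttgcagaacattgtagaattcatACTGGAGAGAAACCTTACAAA
ZNF91: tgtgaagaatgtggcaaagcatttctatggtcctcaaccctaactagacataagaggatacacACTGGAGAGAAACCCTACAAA
ZNF587: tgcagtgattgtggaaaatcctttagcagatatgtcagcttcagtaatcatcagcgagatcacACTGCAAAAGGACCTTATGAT
ZNF358: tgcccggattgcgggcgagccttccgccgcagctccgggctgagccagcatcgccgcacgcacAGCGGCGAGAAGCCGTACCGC
The GC content of these fingers was 39.3% in ZNF480, 41.7% in ZNF91, 40.5% in ZNF587 and 73.8% in ZNF358. The 15-base run catactggagagaaa, which joins the last histidine to the linker, occurred 350 times in the coding sequences of 90 of the 213 members (42.3%), on the coding strand. It was present in 41 of 231 ZNF genes of other chromosomes (17.7%) and in 9 of 12257 other protein-coding genes (0.07%).

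The members had a median of 13 fingers, with 32 in ZNF91 and none found in the readthrough gene ZNF625-ZNF20. A sequence like the KRAB domain was found in 168 of the 213 (78.9%), against 32.0% of the ZNF genes elsewhere. This pattern is approximate, since it was searched in 1 translated transcript per gene. Their transcripts were poor in GC, with a median of 42.4% and an interquartile range of 39.6 to 45.1%, whereas the other 691 protein-coding genes of chromosome 19 had a median of 61.1% and all 12701 protein-coding genes at the minimum 48.1%. Near-identical copies limit how reads can be divided: 35 members shared at least 10% of their 100-base runs with another gene, 10 of them more than 50%, and 121 shared none.

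HEK293 Flp-In T-REx cells, a human embryonic kidney line with an inducible expression site, were used as 2 lines, each derived from a single colony. In both, doxycycline at 1 µg/ml for 6 days induced chained miRNAs against endogenous PGC-1α together with a FLAG-tagged, miRNA-resistant PGC-1α, which was full length in WT-res and lacked the RS domain in ΔRS-res. Ribosomal RNA was depleted from whole-cell RNA (1 well) and cytoplasmic RNA (6 pooled wells, hypotonic lysis), and each of the 4 groups holds 3 libraries from consecutive passages. Differences between the lines are thus differences between 2 clones, and p-values measure only the spread between passages. PGC-1α is a transcriptional coactivator for which the study examined an additional role in mRNA nuclear export, so the ratio between fractions in each line and the difference between lines in each fraction are the comparisons of the design.

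Libraries held 90333190 to 144628005 expected counts, of which the members took 0.485 to 0.629%. NEAT1 and KCNQ1OT1 were depleted from the cytoplasm, with log2 ratios of -1.52 in WT-res and -1.49 in ΔRS-res for NEAT1 and of -1.90 and -1.54 for KCNQ1OT1. MALAT1 gave -0.71 and -0.40 without passing the test. The cytoplasmic libraries were uneven, with MALAT1 at 1783, 993 and 1110 CPM in WT-res and 1152, 1025 and 1519 in ΔRS-res. In WT-res library 1 it was above the whole-cell level of 1616 CPM. NEAT1 was at 129, 80.9 and 86.8 CPM and at 79.8, 74.7 and 105. KCNQ1OT1 did not follow this order, at 7.93, 8.56 and 6.39 and at 8.18, 8.94 and 6.21. The effect on the ratios was not tested. All 8 HEK293 markers were detected, from NEFM at 0.258 to 0.694 CPM up to VIM, with PAX2 at 2.79 to 5.81 CPM. Of 6 genes of other cell types, PTPRC had at most 4 counts in a library and HBB and COL1A2 at most 3, ALB and PECAM1 had 4 to 16 counts, and COL1A1 was at 2.98 to 6.64 CPM (322 to 757 counts). Counts on PPARGC1A, which encodes PGC-1α, do not separate endogenous from introduced mRNA. They were 647, 662 and 487 CPM in WT-res whole-cell RNA and 342, 355 and 486 CPM in ΔRS-res. The library labelled WT-res whole-cell 3 goes against its label: DDX19B measured 0.194 CPM there, against 12.1 and 12.7 in the other WT-res whole-cell libraries and 0.223 to 0.255 in ΔRS-res, and SDHA was likewise at the ΔRS-res level. It was kept under its label, and results that rest on it are given with and without it.

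Levels are in CPM (counts relative to library size after TMM scaling), always listed for libraries 1, 2 and 3 in that order, and differences are on the log2 scale from the quasi-likelihood test of edgeR, adjusted by Benjamini-Hochberg over all genes tested and called at an adjusted p under 0.05. Summed over the 213 members, the level was 5570 ± 328 CPM in WT-res whole-cell RNA (SD, n = 3), 4813 ± 161 in ΔRS-res whole-cell RNA, 6411 ± 203 in WT-res cytoplasm and 5955 ± 166 in ΔRS-res cytoplasm. The median member was at 16.1, 13.1, 17.6 and 16.7 CPM in the same order, and single members ranged from 0.195 CPM (ZNF730 in ΔRS-res whole-cell RNA) to 493 CPM (ZNF146 in WT-res cytoplasm). In whole-cell RNA the highest levels per kilobase of transcript were those of ZNF146 (64.6 CPM per kb), ZNF227 (36.4), ZNF875 (33.0), ZNF428 (30.6) and ZNF121 (27.5). In bulk RNA, a lower level in every cell and fewer cells with the RNA cannot be told apart.

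The first question is where the mRNAs of these genes lie. In WT-res, 13 members (6.10%) were lower and 48 (22.5%) higher in cytoplasmic than in whole-cell RNA, against 22.4% lower and 12.0% higher over all genes tested and 20.5% and 23.0% of the protein-coding genes at the minimum. In ΔRS-res, 16 members (7.51%) were lower and 79 (37.1%) higher, against 24.1% and 17.0% of all genes. Of 12700 protein-coding genes, 2796 were lower and 4117 (32.4%) higher in ΔRS-res. Among the 231 ZNF genes of other chromosomes, 6.93% were lower and 19.9% higher in WT-res, and 9.52% and 35.9% in ΔRS-res. The median log2 ratio was 0.15 in WT-res (interquartile range -0.09 to 0.38) and 0.18 in ΔRS-res (-0.07 to 0.51), next to 0.17 and 0.16 over all protein-coding genes at the minimum. None of the members fell below -1, a level that 13.4% of those protein-coding genes passed in WT-res and 13.7% in ΔRS-res. Few of the ZNF genes elsewhere passed it either, 1.73% and 1.30%. With only protein_coding transcripts summed, 1 member in WT-res and 2 in ΔRS-res fell below -1. Above 1 there were 3 members in WT-res (1.41%) and 28 in ΔRS-res (13.1%), compared with 0.512% and 3.64% of the protein-coding genes. The ZNF genes elsewhere had 2 (0.866%) and 26 (11.3%) above 1. Leaving out the library labelled WT-res whole-cell 3, 8 members (3.76%) were above 1 in WT-res, against 1.26% of the protein-coding genes.

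The zero point of these ratios depends on the scaling. When libraries were scaled by the counts on nuclear-encoded protein-coding genes instead of TMM, the median protein-coding gene moved to 0.01 in WT-res and -0.01 in ΔRS-res and the median member to -0.01 and 0.01, so the members stayed at the level of other mRNAs. Calls then split into 26 lower and 18 higher in WT-res (against 25.2% and 3.40% of all genes, 23.3% and 6.35% of protein-coding genes) and 44 lower and 55 higher in ΔRS-res (against 28.5% and 8.55%, 26.7% and 16.2%). Per passage, the median of the members was 0.10, 0.16 and 0.16 in WT-res and 0.22, 0.15 and 0.15 in ΔRS-res. Leaving out the library labelled WT-res whole-cell 3 gave 15 lower and 53 higher in WT-res, against 22.7% and 13.9% of all genes and 2661 and 3371 of 12701 protein-coding genes. Counts of members lower in WT-res were 6 without its whole-cell library 2 or its cytoplasmic library 1 and 4 without its cytoplasmic library 3, where 18.1%, 18.3% and 15.6% of all genes were lower. Members higher numbered 25 to 29 without any 1 of its whole-cell libraries 1 and 2 and cytoplasmic libraries 1 and 2 (5.74 to 9.41% of all genes), and 16 without cytoplasmic library 3 (3.68%). With a block for the replicate number, which in the sample sheet marks a shared cell pellet, 34 members (16.0%) were lower and 103 (48.4%) higher in ΔRS-res, against 30.2% and 26.3% of all genes and 27.5% and 48.9% of protein-coding genes. Leaving out ΔRS-res whole-cell library 2 or cytoplasmic library 1 or 2 gave 8, 10 and 9 lower, where 19.7%, 20.4% and 20.0% of all genes were.

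Most members had a ratio of the same sign in both lines. This held for 190 of 213, with 45 called higher in both, 8 called lower in both and none called in opposite directions. These counts were not compared with those of other genes, and the rank order was not tested. By label the lines share no libraries in this comparison, but the WT-res ratios include the library that goes against its label.

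**Figure D1:**
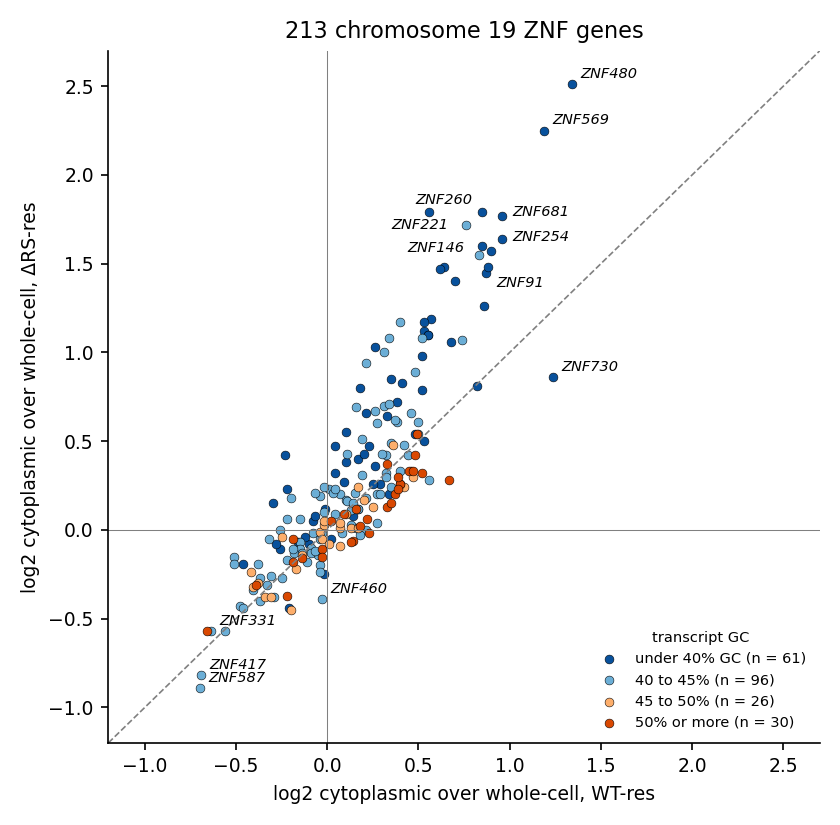
Each point is 1 of the 213 members, with the log2 ratio of cytoplasmic to whole-cell RNA in WT-res on the x axis and in ΔRS-res on the y axis, and colour gives the GC content of its transcript. Most members under 40% GC lie above the dashed line of equal ratios at the right, led by ZNF480 at 1.34 and 2.51, and ZNF587 and ZNF417 lie lowest.

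At the cytoplasmic end stood ZNF480, ZNF569, ZNF681, ZNF260, ZNF254 and ZNF221. ZNF480 measured 8.39, 17.4 and 20.0 CPM in WT-res whole-cell RNA and 32.4, 48.6 and 34.6 in its cytoplasm, and 6.61, 7.89 and 6.39 against 45.4, 46.4 and 26.8 in ΔRS-res. Fractions did not overlap in either line, and the first WT-res whole-cell library was closer to ΔRS-res than to the other WT-res libraries. The log2 ratio was 1.34 in WT-res (SE 0.301, adjusted p = 0.0117) and 2.51 in ΔRS-res (SE 0.215, adjusted p = 5.89e-05).

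ZNF569, a KRAB repressor, rose from 17.1, 32.8 and 45.6 CPM to 68.7, 67.4 and 81.2 CPM in WT-res cytoplasm and from 11.6, 13.4 and 13.6 to 57.3, 61.0 and 65.0 in ΔRS-res. The ratios were 1.19 (adjusted p = 0.0172) and 2.25 (adjusted p = 1.56e-06), and again the spread lay in the WT-res whole-cell libraries. ZNF260 was at 46.7, 83.1 and 88.8 CPM in WT-res whole-cell RNA and 120, 140 and 136 in the cytoplasm, and at 31.9, 39.1 and 33.6 against 121, 125 and 114 in ΔRS-res, with ratios of 0.85 and 1.79. The cytoplasmic levels of ZNF260 overlapped between the lines while the whole-cell levels did not. ZNF681 (0.96 and 1.77), ZNF254 (0.96 and 1.64) and ZNF221 (0.76 and 1.72) had the same form and were called in both lines.

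At the other end, ZNF587 was at 80.8, 78.1 and 75.6 CPM in WT-res whole-cell RNA and at 44.9, 51.2 and 49.1 in the cytoplasm. In ΔRS-res it was at 78.1, 79.6 and 76.8 against 41.4, 46.9 and 38.2 CPM. All 6 cytoplasmic libraries were below all 6 whole-cell libraries, and the ratio was -0.70 in WT-res (SE 0.0918, adjusted p = 0.000877) and -0.89 in ΔRS-res (SE 0.0839, adjusted p = 0.000102). Its neighbour and relative ZNF417 gave -0.69 and -0.82 and was called in both lines. The values of this pair are not independent, since 14.7% of the 100-base runs of ZNF587 and 23.5% of those of ZNF417 occur in the other gene. ZNF331, a KRAB gene imprinted in some tissues, was at 38.4 ± 1.44 CPM (SD, n = 3) in WT-res whole-cell RNA and 25.5, 25.4 and 23.2 in the cytoplasm, and at 32.1, 33.6 and 33.9 against 22.2, 23.2 and 21.3 in ΔRS-res. Its ratios were -0.64 (adjusted p = 0.00119) and -0.57 (adjusted p = 0.000350), with no overlap between fractions. ZNF497 stood at -0.66 in WT-res (adjusted p = 0.0214) and -0.57 in ΔRS-res (adjusted p = 0.0779), and the replicate block called it in ΔRS-res as well (-0.56, adjusted p = 0.000946). ZNF814 stood at -0.48 (adjusted p = 0.0525) and -0.43 (adjusted p = 0.0337), and the block called it in WT-res too (-0.46, adjusted p = 0.0443). ZNF846, at -0.56 and -0.57, was called in ΔRS-res with the block (-0.63, adjusted p = 0.00671). The interaction test called none of the 3.

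Among members with a known role, ZNF91, which represses SVA retrotransposons, was at 23.4, 31.9 and 41.8 CPM in WT-res whole-cell RNA and 57.3, 58.3 and 61.7 in the cytoplasm. In ΔRS-res it was at 18.8 ± 1.79 (SD, n = 3) against 50.8, 50.9 and 51.1 CPM, so that the ratio was 0.87 (adjusted p = 0.00867) and 1.45 (adjusted p = 6.1e-06). ZNF93, which represses L1 elements, was also higher in the cytoplasm of both lines (0.74 and 1.07). ZNF146, a gene of fingers alone without a KRAB domain and the most abundant member, was at 191, 289 and 338 against 479, 494 and 505 CPM in WT-res and at 149, 173 and 157 against 464, 481 and 503 in ΔRS-res. Its ratios of 0.85 and 1.60 were both called, and its 6 cytoplasmic libraries lay close together while the whole-cell libraries of WT-res ranged more widely than those of ΔRS-res. ZNF473, which takes part in the processing of histone pre-mRNA, was higher in the cytoplasm of both lines by a smaller amount (0.47 and 0.30). ZNF274, which recruits the methyltransferase SETDB1 to zinc finger genes themselves, was at 38.1 to 47.6 CPM in WT-res whole-cell RNA and 41.7 to 44.5 in the cytoplasm, with ratios of -0.03 and -0.15, neither called, although the replicate block called the latter (-0.15, adjusted p = 0.0223). ZNF808, with -0.07 and -0.12, was not called either.

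Retained-intron transcripts took 3.54% ± 0.276 of the counts of the members in WT-res whole-cell RNA (SD, n = 3) and 3.62% ± 0.147 in ΔRS-res, and 1.27% ± 0.128 and 1.23% ± 0.0268 in the cytoplasm, so they were depleted there in both lines. Over all protein-coding genes at the minimum these shares were 5.20, 4.73, 2.90 and 2.82%. When only transcripts of the type protein_coding were summed, the median ratio of the members was 0.00 in WT-res, with 22 lower and 15 higher (against 18.1% and 4.84% of all genes, 20.2% and 5.76% of protein-coding genes), and 0.07 in ΔRS-res, with 28 lower and 61 higher (against 21.3% and 14.9%, 23.2% and 18.0%).

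The ratio moved with base composition. The 61 members under 40% GC had a median ratio of 0.33 in WT-res and 0.64 in ΔRS-res, the 96 between 40 and 45% had 0.09 and 0.13, the 26 between 45 and 50% had 0.00 in both, and the 30 at 50% or more had 0.23 and 0.11. This was not particular to the members. Under 40% GC the ZNF genes elsewhere had 0.38 and 0.85, and all protein-coding genes at the minimum 0.34 and 0.53. Of the 28 members above 1 in ΔRS-res, 21 were under 40% GC and 10 lay in the cluster from ZNF101 to ZNF254. After an offset for GC in each library, 11 members (5.16%, against 1.39% of protein-coding genes) were above 1 in ΔRS-res, and the median was 0.09 in both lines. Calls were then 22 lower and 42 higher in WT-res, against 22.5% and 13.0% of all genes and 20.4% and 24.9% of protein-coding genes. In ΔRS-res they were 35 lower and 66 higher, against 23.8% and 18.6% of all genes and 21.4% and 35.6% of protein-coding genes. The Spearman correlation of the ratio with GC across the 213 members was -0.26 in WT-res and -0.47 in ΔRS-res before the offset and -0.03 and -0.05 after it. The offset curves were fitted on all protein-coding genes at the minimum, members among them, so a weaker correlation is largely built in. Before the offset it was -0.21 and -0.57 in the ZNF genes elsewhere and -0.24 and -0.40 over the protein-coding genes.

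The difference between the lines in cytoplasmic RNA asks which mRNAs were less abundant there in the line that lacks the RS domain. Of the 213 members, 8 (3.76%) were lower in ΔRS-res cytoplasm, against 0.948% of all genes tested, 1.54% of the protein-coding genes and 9 of the 231 ZNF genes elsewhere (3.90%). By edgeR's quasi-likelihood test 0 were higher, against 0.578% of all genes, and at an unadjusted p under 0.05 there were 3 higher, against 5.12%. After adjustment DESeq2 called 1 member higher, ZNF358, against 1.64%. The 8 were ZNF730, ZNF83, ZNF85, ZNF737, ZNF43, ZNF600, ZNF726 and ZNF93. ZNF730 reached the count minimum only through libraries where it was high, and 7 others were called. The median difference over all members was -0.07, with 149 below 0, next to 0.02 over the protein-coding genes at the minimum. In 61 members (28.6%, against 9.04% of all genes) the 3 ΔRS-res cytoplasmic libraries were all below the 3 of WT-res, and in 7 (3.29%, against 8.39%) the order was the reverse. Among the ZNF genes elsewhere these shares were 17.7% and 11.3%.

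ZNF730 was at 2.05 ± 0.154 CPM in WT-res cytoplasm (SD, n = 3) and 0.238, 0.390 and 0.427 in ΔRS-res, a difference of -2.53 (SE 0.233, adjusted p = 0.00282). It is also the member with the lowest mean count, 168 over the WT-res and 33.2 over the ΔRS-res libraries. Its mean was 142 over the cytoplasmic and 59.2 over the whole-cell libraries. It thus passed the minimum through WT-res and the cytoplasm and is given as a description, which leaves 7 other members called. Its whole-cell levels were 0.764, 1.38 and 0.416 CPM in WT-res and 0.146, 0.232 and 0.207 in ΔRS-res. The lines did not overlap in either fraction, and the lowest WT-res whole-cell value was that of the library that goes against its label.

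ZNF83 was at 26.6, 22.2 and 25.1 CPM in WT-res cytoplasm and 12.2, 13.0 and 12.8 in ΔRS-res (-0.95, SE 0.0925, adjusted p = 0.00320), and at 22.9, 28.7 and 24.2 against 9.42, 10.3 and 13.7 in whole-cell RNA. ZNF85 was at 13.2, 13.0 and 14.4 against 6.41, 7.12 and 6.87 CPM in the cytoplasm (-0.99, SE 0.0988, adjusted p = 0.00342), and at 7.54, 9.51 and 5.80 against 3.32, 4.05 and 4.30 in whole-cell RNA. Both genes thus separated the lines in each fraction, and ZNF83 had nearly the same level in cytoplasm and whole cell. ZNF43 was at 43.5, 42.0 and 46.7 against 29.1 ± 0.829 CPM (SD, n = 3) in the cytoplasm (-0.59, SE 0.0775, adjusted p = 0.0104), and at 18.6, 28.2 and 25.9 against 11.6, 13.5 and 11.5 in whole-cell RNA. It was the smallest of the 8 differences, without overlap in either fraction.

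The other 4 were low in expression. ZNF737 was at 3.44, 3.07 and 3.93 against 1.35, 1.35 and 1.63 CPM in the cytoplasm (-1.26, adjusted p = 0.00909). ZNF600 was at 3.20, 3.18 and 2.87 against 1.76, 1.62 and 1.55 CPM (-0.90, adjusted p = 0.0187). The L1 repressor ZNF93 was at 5.53, 5.62 and 5.15 against 3.33, 3.46 and 2.62 CPM (-0.78, adjusted p = 0.0413). In these 3 genes the whole-cell levels did not overlap between the lines either. ZNF726 was at 8.45, 10.0 and 9.73 against 5.36, 5.41 and 4.02 CPM in the cytoplasm (-0.93, adjusted p = 0.0257), but its whole-cell levels of 13.1, 12.9 and 6.39 against 6.68, 6.94 and 6.45 overlapped, through the library labelled WT-res whole-cell 3.

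**Figure D2:**
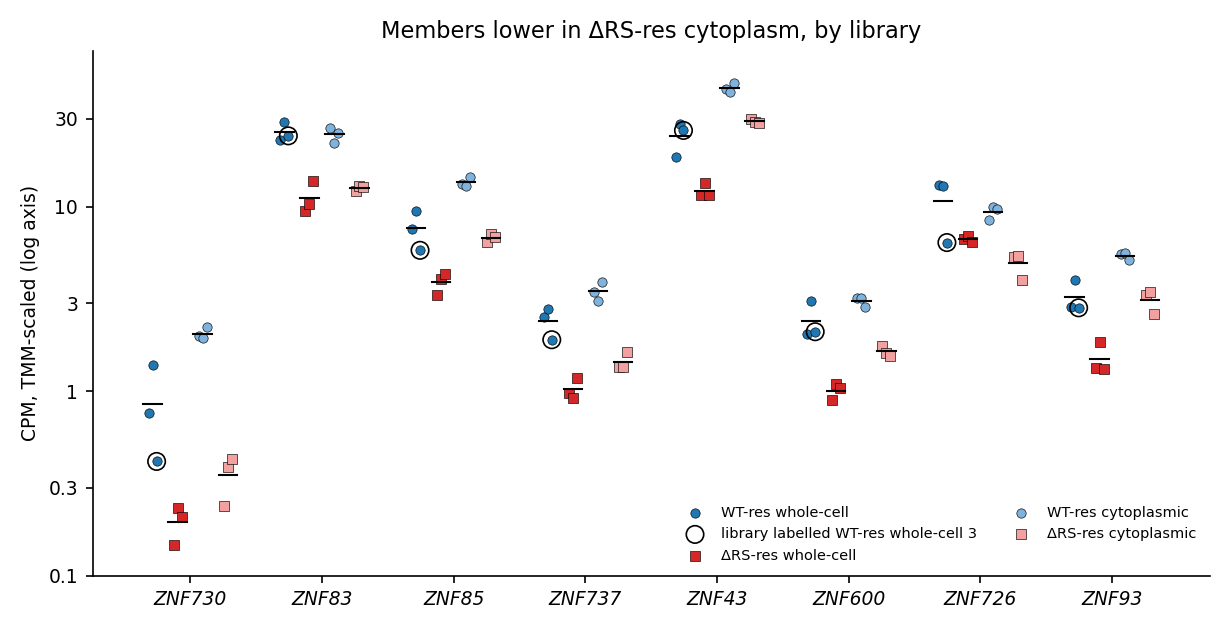
CPM on a log axis for the 8 members called lower in ΔRS-res cytoplasm, with 1 point per library, bars at the mean of 3 libraries and a ring around the library labelled WT-res whole-cell 3. In each gene the 3 ΔRS-res cytoplasmic libraries lie below the 3 of WT-res, and the whole-cell libraries separate in all but ZNF726.

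Of the 8, 6 lie in the cluster from ZNF101 to ZNF254 (chr19:19668796-24129968, GRCh38), ZNF730 among them. The other 2, ZNF83 and ZNF600, lie in that from ZNF175 to ZNF331 (chr19:51571283-53580269). A KRAB-like sequence was found in 6, and 5 were under 40% GC. The 7 other than ZNF730 were called again with GC offsets, by DESeq2 and in the 4 cytoplasmic libraries retained by the study (WT-res 1 and 3, ΔRS-res 1 and 2). ZNF730 was called as well, but it was kept through the libraries where it was high and is no support. The counts of calls were less stable: with those 4 libraries 37 members were lower and 25 higher, against 11.4% and 10.7% of all genes and 18.3% and 18.1% of protein-coding genes, and the median was -0.02. Leaving out WT-res cytoplasmic library 1, 2 or 3 left 3, 5 and 3 members called lower (0.353%, 0.703% and 0.221% of all genes), and leaving out ΔRS-res cytoplasmic library 1 or 2 left 3 (0.204% and 0.275%).

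In whole-cell RNA, 0 members were called between the lines by edgeR's quasi-likelihood test (0% of all genes were called lower), while 81 were lower and 5 higher at an unadjusted p under 0.05, against 8.54% of all genes lower and 1071 of 26793 higher. DESeq2 called 43 lower (20.2%) and 0 higher, against 2.97% and 1.00% of all genes and 680 and 254 of 12701 protein-coding genes. Among the ZNF genes elsewhere it called 13.0% lower and 2.16% higher. The median difference was -0.15 (interquartile range -0.42 to -0.01) with 163 of 213 below 0. It was -0.05 in the ZNF genes elsewhere, with 132 of 231 below 0, and 0.03 over the protein-coding genes. Over the other chromosome 19 genes it was 0.11, but their median GC was 61.1%, against 42.4% in the members. From 40 to 45% GC, 15 of these other genes had a median of -0.12, against -0.15 in 96 members. All 3 ΔRS-res libraries were below all 3 WT-res libraries for 75 members (35.2%, against 9.56% of all genes) and above them for 22 (10.3%, against 9.60%). In the ZNF genes elsewhere these shares were 22.5% and 14.7%, and in the other chromosome 19 genes 1.16% and 23.9%.

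With a block for the replicate number, along which whole-cell libraries of the 2 lines deviated together, 64 members were lower (against 5.19% of all genes, 9.16% of protein-coding genes and 19.9% of ZNF genes elsewhere) and 1, ZNF536, was higher (against 2.78%, 5.65% and 6.06%). Calls under this block ranged from -2.03 to -0.21, and 41 of the 64 were under 40% GC. Leaving out the library labelled WT-res whole-cell 3, edgeR called 9 members lower (4.23%, against 1.18% of all genes and 3.90% of ZNF genes elsewhere) and 1, ZNF358, higher (against 0.886%), at a median of -0.19. Those 9 were the 8 called in the cytoplasm and ZNF528 (-0.67). Without WT-res whole-cell library 1, 27 (12.7%) were called lower and 0 higher, against 2.11% and 0.130% of all genes, while 4.15% of protein-coding genes and 11.3% of the ZNF genes elsewhere were lower.

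The whole-cell difference lay mostly in members of low GC content. Its median was -0.55 under 40% GC, -0.15 from 40 to 45%, -0.03 from 45 to 50% and 0.16 at 50% or more, and in the cytoplasm the same bins had -0.13, -0.08, -0.04 and 0.06. Under 40% GC the whole-cell median was also -0.55 in the ZNF genes elsewhere, and -0.28 over all protein-coding genes at the minimum. Across the 213 members the Spearman correlation with GC was 0.77 in whole-cell RNA and 0.43 in the cytoplasm; over all 12701 protein-coding genes it was 0.63 and 0.24. The points share their libraries, so these are descriptions. With GC offsets the whole-cell correlation was 0.41 in the members and -0.01 over the protein-coding genes, the bin medians were -0.25, -0.11, -0.06 and 0.00, and the median of all members was -0.10 with 0 calls. The offset curves were fitted on these protein-coding genes, so their value of -0.01 was set by the fit. GC offsets together with the replicate block gave 26 members lower (12.2%, against 1.38% of all genes and 7.36% of ZNF genes elsewhere), of which 4 were among the 8 called in the cytoplasm.

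**Figure D3:**
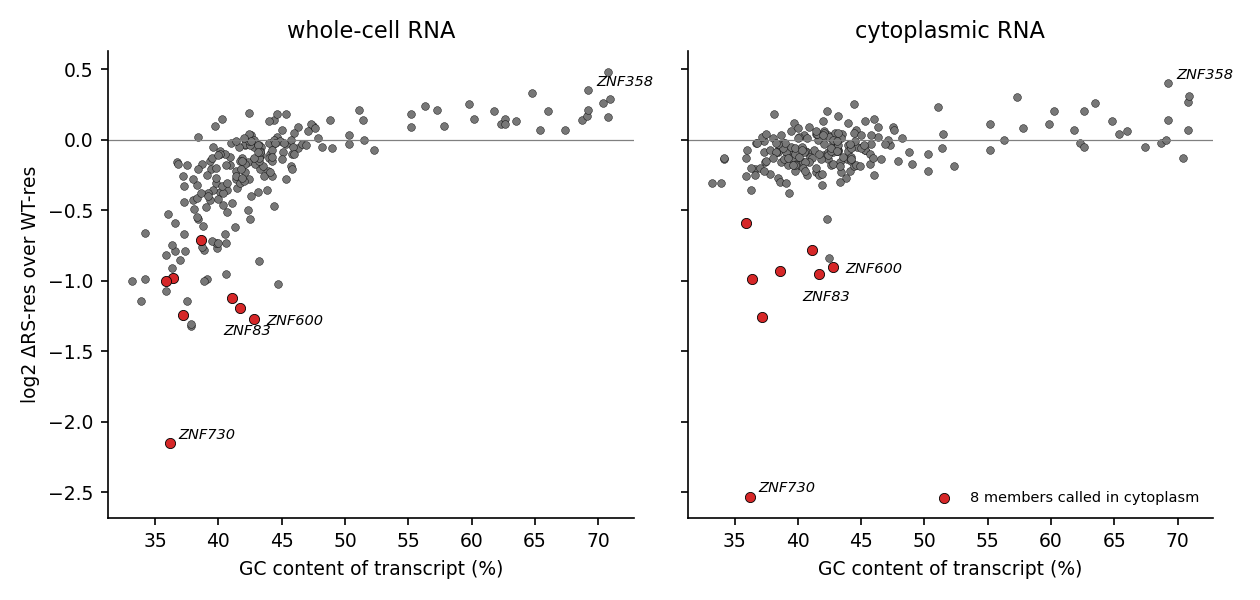
The log2 difference of ΔRS-res from WT-res for each of the 213 members against the GC content of its transcript, in whole-cell RNA (left) and cytoplasmic RNA (right), with the 8 members called in the cytoplasm in red. In whole-cell RNA the points fall away below 45% GC, and in the cytoplasm most stay near 0 while the red points stand below them.

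The libraries differed in this respect one by one. Against their mean over the 12 libraries, the 61 members under 40% GC were at a median of -0.18, 0.10 and 0.10 in WT-res whole-cell RNA and -0.53, -0.34 and -0.53 in ΔRS-res whole-cell RNA. In the cytoplasm they were at 0.19, 0.41 and 0.38 in WT-res and 0.22, 0.22 and 0.07 in ΔRS-res. Of the WT-res whole-cell libraries, the first was thus the nearest to ΔRS-res. All protein-coding genes under 40% GC moved in the same way, at -0.26, -0.01 and 0.09 in WT-res whole-cell RNA and -0.38, -0.27 and -0.33 in ΔRS-res. Beyond the values with GC offsets, the part of base composition in the line difference was not tested.

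**Figure D4:**
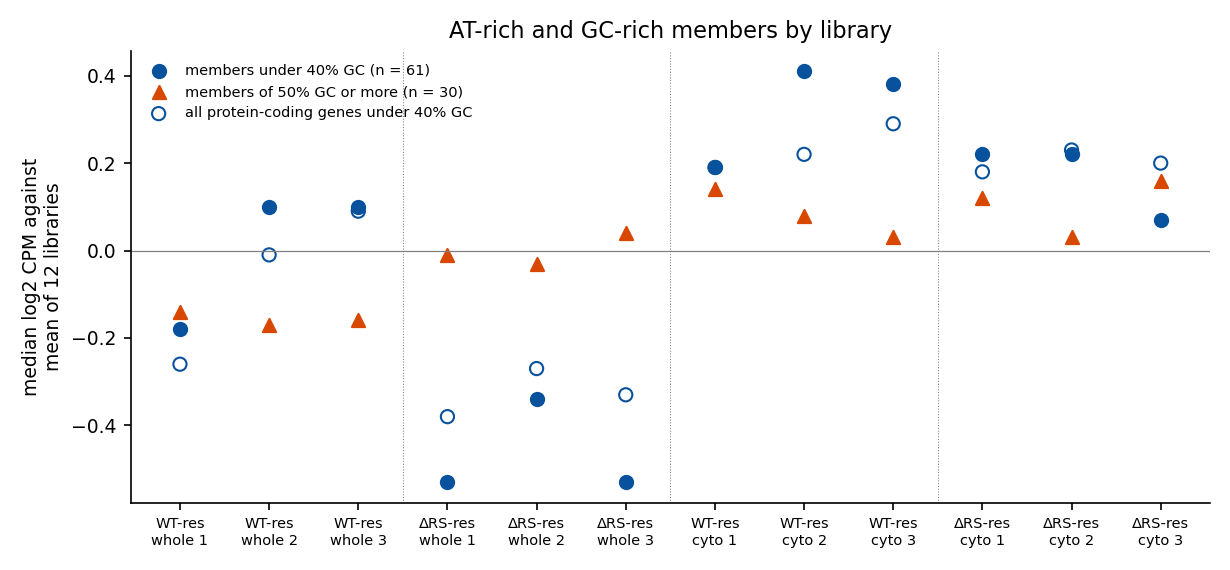
Median log2 CPM against the mean of the 12 libraries, for members under 40% GC (filled circles), members of 50% GC or more (triangles) and all protein-coding genes under 40% GC (open circles), in each library. The low-GC members lie lowest in the 3 ΔRS-res whole-cell libraries, between -0.53 and -0.34, and highest in WT-res cytoplasmic libraries 2 and 3.

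Along the chromosome, the line difference was uneven between clusters, which were formed where neighbouring ZNF genes lay less than 1 Mb apart. The cluster from ZNF101 to ZNF254, with 26 members and the lowest GC of the large clusters (median 36.8%), stood at -0.77 in the whole cell and -0.20 in the cytoplasm by the median. With the replicate block 20 of its members were called lower in whole-cell RNA, against 5.19% of all genes and 882 of 2167 protein-coding genes under 40% GC. Leaving out the library labelled WT-res whole-cell 3, 6 of its members were called lower, against 1.18% of all genes. With GC offsets the whole-cell median was -0.38. Its members were at a median of -0.37, 0.12 and 0.17 in the WT-res whole-cell libraries against their 12-library mean, and at -0.86, -0.56 and -0.69 in those of ΔRS-res.

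The cluster from ZNF175 to ZNF331 had 33 members at a median GC of 40.7%, with -0.38 in whole-cell RNA, -0.13 in the cytoplasm and 32 of 33 below 0 in whole-cell RNA. With GC offsets it stood at -0.30. In the cluster from ZNF565 to ZNF573, with 26 members at 39.2% GC, all 26 were below 0 in whole-cell RNA, at a median of -0.27. The 3 other protein-coding genes in its span had a median of -0.24. Signs below 0 were common at low GC: 1993 of 2167 protein-coding genes under 40% GC and 1734 of 2769 from 40 to 45% had them. By contrast, the 54 members of the last cluster, from ZNF628 to ZNF446 (chr19:55476617-58481230, median GC 45.8%), were centred on 0.00 in the whole cell and -0.01 in the cytoplasm. In whole-cell RNA 1 of them was called lower with the block, against 5.19% of all genes. This cluster also held 7 of the 13 members lower in the cytoplasm than in the whole cell of WT-res and 11 of the 16 of ΔRS-res, among them ZNF587 and ZNF417, and its median ratio was -0.02 in both lines, against 0.45 and 0.84 in the cluster from ZNF101 to ZNF254.

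**Figure D5:**
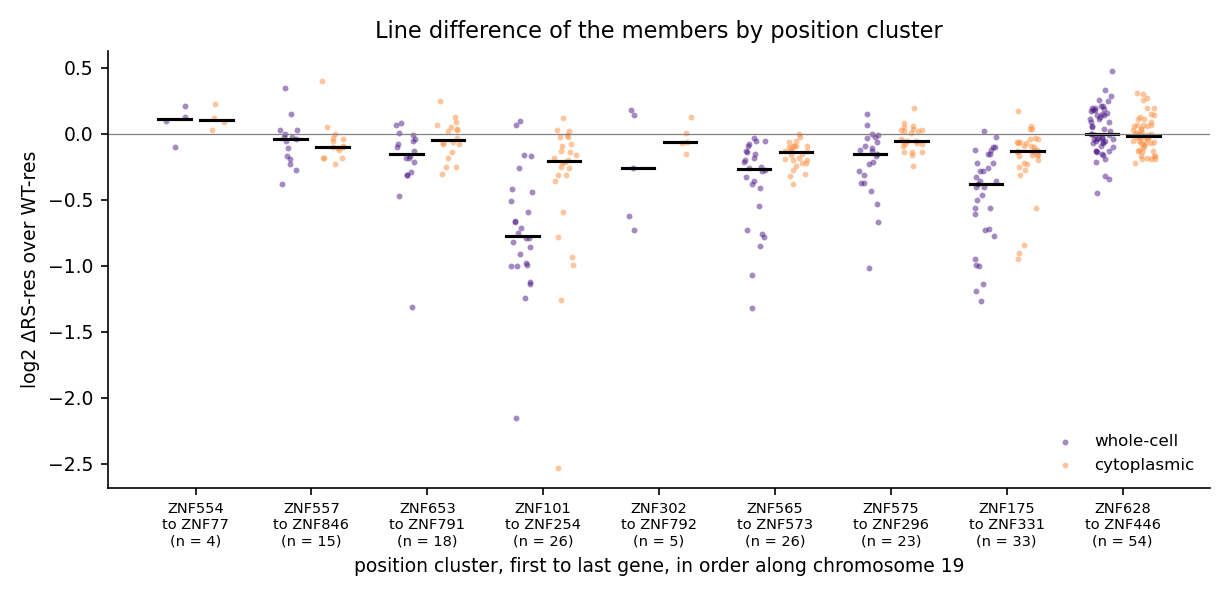
The log2 difference of ΔRS-res from WT-res for the members of each cluster of at least 4 members, in order along chromosome 19, in whole-cell (purple) and cytoplasmic (orange) RNA, with bars at the medians. The cluster from ZNF101 to ZNF254 lies lowest at -0.77 in whole-cell RNA, and the last cluster lies at 0.00.

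Members with a KRAB-like sequence had a median whole-cell difference of -0.18 (n = 168) and those without one 0.00 (n = 45). The former were also lower in GC, with a median of 42.0% against 47.1%, and the part of each of the 2 features was not tested.

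Whether the ratio between fractions itself differed between the lines was asked by the interaction of fraction and line. By edgeR's quasi-likelihood test 0 members were called (0.00375% of all genes were called lower and 0% higher), with 6 lower and 31 higher at an unadjusted p under 0.05, against 1.34% and 4.18% of all genes, and DESeq2 called 0. The median interaction of the members was 0.05. The smallest p-values were those of ZNF460 (-0.38, SE 0.0871, adjusted p = 0.702), ZNF260 (0.93, adjusted p = 0.702) and ZNF567 (0.63, adjusted p = 0.702). ZNF460, at 94.6, 99.2 and 98.3 CPM in WT-res cytoplasm and 84.6, 87.1 and 85.3 in ΔRS-res, was at 105, 93.9 and 97.8 against 113, 108 and 117 in whole-cell RNA. The lines thus stood in opposite order in the 2 fractions of ZNF460, without overlap in either. ZNF567 was at 27.3, 39.9 and 42.4 against 20.4 ± 1.41 CPM (SD, n = 3) in whole-cell RNA and at 51.6, 51.8 and 54.8 against 46.8, 47.1 and 43.1 in the cytoplasm, where the lines lay closer together. Without WT-res whole-cell library 1, 1 member (ZNF460, -0.42) was called lower and 20 higher (9.39%), 16 of the 20 under 40% GC. Over all genes 0.0112% were then lower and 1.63% higher, and 9.96% of the ZNF genes elsewhere and 3.26% of protein-coding genes were higher.

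By the median, replicates of the members differed about as much as those of other genes in whole-cell RNA and somewhat less in the cytoplasm. The median range of log2 CPM over 3 libraries was 0.31 in WT-res whole-cell RNA, 0.22 in ΔRS-res whole-cell RNA and 0.19 in the cytoplasm of both lines, next to 0.29, 0.21, 0.24 and 0.24 for the protein-coding genes. In WT-res whole-cell RNA 13 members ranged over more than 1, with the widest range, 2.25, in ZNF441, and in ΔRS-res whole-cell RNA none did. The 95th percentile of the range there was 1.03 and 0.50, against 1.03 and 0.70 for the protein-coding genes. For the cytoplasm of WT-res and ΔRS-res it was 0.52 and 0.58, against 0.83 and 0.85. In the cytoplasm the widest ranges were those of ZNF625-ZNF20 (1.76), ZNF547 (1.04), ZNF846 (1.03) and ZNF730 (0.82). ZNF625-ZNF20, a readthrough gene that shares 96.2% of its 100-base runs with ZNF20, measured 0.739, 2.53 and 1.06 CPM in WT-res cytoplasm, and its values are uncertain for that reason. ZNF846 measured 1.33, 1.33 and 2.74 CPM in ΔRS-res cytoplasm, with the third library apart.

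The corepressor that KRAB domains recruit was compared in the same way with its partners. Of 24 such genes, 0 were called between the lines in cytoplasmic or whole-cell RNA by edgeR. In whole-cell RNA 4 were lower and 2 higher with the replicate block, 3 and 1 by DESeq2, and in the cytoplasm 1 was lower by DESeq2, and 3 were lower and 6 higher in the libraries retained by the study. Over all genes the whole-cell shares were 5.19% and 2.78% with the block and 2.97% and 1.00% by DESeq2. In the cytoplasm 1.95% of all genes were lower by DESeq2, and 11.4% were lower and 10.7% higher in the retained libraries. Between fractions, 0 were lower and 6 higher in the cytoplasm of WT-res and 1 lower and 11 higher in ΔRS-res, next to 23.0% and 32.4% of all protein-coding genes that were higher. TRIM28 was at 393, 378 and 311 CPM in WT-res whole-cell RNA and 393, 386 and 374 in ΔRS-res, and at 445, 506 and 431 against 461, 437 and 443 in the cytoplasm. The lines overlapped in both fractions, with differences of 0.08 in whole-cell RNA and -0.04 in the cytoplasm. SETDB1, the methyltransferase of the complex, stayed between 80.3 and 87.9 CPM in all 12 libraries.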

How the data were processed

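RNA-seq was measured in 12 libraries, 3 for each line and fraction, grouped by their labels. The authors ran nf-core/rnaseq (Trim Galore, STAR and RSEM on GRCh38 with Ensembl 107, tool versions not given in the sources used here) and deposited RSEM expected counts per transcript, unscaled, with 90333190 to 144628005 per library. Whether counting used strand is not given in the sources used here, so overlapping antisense genes are uncertain. Expected counts were summed per gene and rounded, and genes with a mean above 2 in the libraries of a fit were tested with edgeR 4.0.16 in R 4.3.3 (TMM, quasi-likelihood test, Benjamini-Hochberg adjustment over all genes). GENCODE 44 gave gene types, positions and sequences for 61757 of 61860 genes, which carry 99.94% of the counts, and fingers and KRAB-like sequences came from translating its canonical coding sequences. CPM used TMM sizes over all libraries.

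Alternatives were DESeq2 1.42.0 and its size factors, scaling by total counts or by nuclear protein-coding counts, no filter, filterByExpr, only protein_coding transcripts, members with a mean count of 500 or more, the 4 cytoplasmic libraries retained by the study, a replicate block, and each library left out. GC offsets (a lowess curve of each library on GC) and combinations with leaving out the library labelled WT-res whole-cell 3 were chosen after seeing the data. In the main setting, the edgeR fit of each comparison was tested on simulated counts. The other settings and steps were not.

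Same-numbered whole-cell libraries of the lines deviated together over 12701 genes (r = 0.53, 0.58 and 0.62), and those of the fractions share a pellet in the sample sheet, with r = 0.64, 0.50 and 0.79 in ΔRS-res and -0.20, 0.57 and 0.44 in WT-res. No libraries of a group were copies of each other (chi-square per gene of at least 10.3).

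Genes named are the 6 lowest and 6 highest members by the mean ratio of both lines, up to 8 called members per line comparison and direction, the 3 smallest interaction p-values, the 4 widest cytoplasmic replicate ranges, the 5 highest levels per kilobase and 7 genes with known roles. ZNF358, ZNF528, ZNF536 and ZNF441 were named after their values were seen. The members and lists were chosen with earlier results of these data known.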

Additional observations from a re-analysis of the deposited data

Results flagged for a closer look

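On the TMM scale, the ratio of ZNF875 had opposite signs in the lines in every passage. Opposite signs of this kind occurred in 6 of the 213 members (2.82%), against 0.528% of protein-coding genes. The signs depend on the scaling. Nuclear protein-coding counts moved the median protein-coding gene of WT-res from 0.17 to 0.01. The third WT-res value uses the library labelled WT-res whole-cell 3. The log2 ratio of cytoplasmic to whole-cell RNA of ZNF875 was 0.07, 0.09 and 0.24 in WT-res, 0.13 on average, and -0.11, -0.08 and -0.04 in ΔRS-res. The interaction of fraction and line was -0.21 (SE 0.0948), with an adjusted p of 0.895 by the quasi-likelihood test of edgeR (Benjamini-Hochberg over all genes), so the difference did not pass the test.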

How the results depend on the processing

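No called value of a named gene changed sign under the alternatives that were run. Over 67 results of named genes and 1228 alternatives, 1066 kept their side of the threshold, 74 lost it and 88 gained it. Members lower in WT-res cytoplasm than whole cell numbered 13, and 26 with nuclear protein-coding counts, 22 with protein_coding transcripts, 22 with GC offsets with or without the replicate block, 26 with GC offsets leaving out the library labelled WT-res whole-cell 3, 43 with the study's libraries and without that library, 3 with the replicate block and without it, and 4 to 15 with 1 library left out. Those higher numbered 48, and 29 with total counts, 18 with nuclear protein-coding counts, 15 with protein_coding transcripts, 27 with the study's libraries, 67 with the study's libraries leaving out the library labelled WT-res whole-cell 3, 27 with the replicate block and without that library, 62 with the block alone, and 16 to 53 with 1 library left out. In ΔRS-res, 16 were lower, and 8 with DESeq2's size factors, 27 with total counts, 44 with nuclear protein-coding counts, 34 with the replicate block, 28 with protein_coding transcripts, 35 with GC offsets, 51 with GC offsets and block, and 8 to 18 with 1 library left out, while the 79 higher ranged from 55 to 103 over all alternatives, 62 to 85 with 1 library left out. In the cytoplasm the 8 lower became 13 with DESeq2, 37 with the study's libraries, 4 among members with a mean count of 500 or more, 9 with the replicate block and 3 to 7 with 1 library left out, and the 0 higher became 1 with DESeq2, 1 with the block, 25 with the study's libraries and 0 with 1 library left out. There the replicate numbers do not pair the lines, since r was -0.49, 0.64 and 0.41. In whole-cell RNA the 0 lower became 43 with DESeq2, 1 without a filter, 64 with the replicate block, 26 with GC offsets and block, 9 with GC offsets leaving out the library labelled WT-res whole-cell 3, 87 with the block and without that library, and 0 to 27 with 1 library left out, and the 0 higher became 1 with the block, 5 with the block and without that library, and 0 to 1 with 1 library left out. The interaction stayed at 0 calls with the block and reached 21 without WT-res whole-cell library 1, from 0 with any other library left out. Calls over all genes changed with the setting as well. In whole-cell RNA 0% of all genes were lower by edgeR, 2.97% by DESeq2 and 5.19% with the replicate block. A count given here without a share of all genes thus describes the setting and is no result about the members. The cause of these changes was not tested, except that leaving out libraries leaves fewer samples. Depth limits the lowest members most, since the mean count was 101 in ZNF730 against a median of 1942 over the members.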
